A study of Mus musculus with 6 samples.

Results

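A group of 10 genes of glucose entry and of the first committed steps of glycolysis was followed in B cells cultured for IgA class switching, 10 of the 46983 genes listed in the bulk RNA-seq table. The genes were chosen by name for their enzyme or transporter family, and were read by Ensembl gene ID. They were the glucose transporters *Slc2a1* and *Slc2a3*, the hexokinases *Hk1*, *Hk2* and *Hk3*, the phosphofructokinase subunits *Pfkl*, *Pfkm* and *Pfkp*, and the bifunctional kinase and phosphatase genes *Pfkfb3* and *Pfkfb4*. Follicular B cells with intermediate CD21 and with CD23 were sorted from spleens of mice on a C57BL/6 background. They were kept in IMDM with 10% serum and stimulated for 3 days with 5 μg/ml LPS and 10 ng/ml of each of TGF-β, BAFF and IL-5. Of the 6 libraries, 3 were from WT mice and 3 from *Hif1a* KO mice. KO mice were *Hif1a* f/f and carried *Mb1*-cre, which is expressed under control of the *Cd79a* locus in B-lineage cells. WT mice were littermates, either *Hif1a* f/+ with cre or *Hif1a* f/f without cre, and for no library do the labels name which of these it was. The ages and sexes of the mice are not given in the labels. Nothing in the labels says that the libraries of a group came from separate mice, so the p-values measure the spread between these libraries, which may be technical.

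Glucose enters lymphocytes through facilitative transporters of the SLC2 family and is trapped inside the cell when a hexokinase phosphorylates it. Phosphofructokinase then adds a further phosphate, the step that commits the sugar to glycolysis, and the PFKFB enzymes make and break the sugar bisphosphate that activates phosphofructokinase. Each step has several isoforms encoded by separate genes, and HIF-1 and Myc are transcription factors known to act on many of these genes.

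The targeted gene, *Hif1a*, had an FPKM (fragments per kilobase of gene per M reads) of 36.5, 49.8 and 45.8 in the WT libraries and of 46.5, 45.6 and 52.8 in the KO libraries, where the values of a group follow the order of replicates 1, 2 and 3 here and throughout. The groups overlapped. Gene-level FPKM counts reads of all exons, so these values cannot show whether the floxed part had been removed, and they do not check the genotype of any library. The libraries held 25.03 to 37.2 M counted reads each. On the first principal component of all genes tested, with 54.7% of the variance, WT replicates 2 and 3 lay apart at 26.2 and 25.9. WT replicate 1 lay at −15.7, among the KO libraries at −9.86, −7.10 and −19.5. On the second, with 16.7% of the variance, KO replicate 2 lay apart at 22.6, against −9.82 to −1.54 for the others. Without KO replicate 2 limma called 0 genes, and none of the 10 genes changed direction. Counts over the 10 genes are therefore given with all libraries, without WT replicate 1, and without WT replicates 2 and 3 together. So are the values of *Hk2*, *Pfkp*, their shares and some of the other genes that followed this split of the WT libraries. The last of these fits was chosen after seeing the data. The genes nearest in profile to *Hk2* and *Pfkp* were picked by this split, and library values are given for some of them.

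The cultures carried B-cell transcripts throughout. All 8 B-cell markers were present in every library, and their summed FPKM was 3838, 2991 and 3052 in the WT and 2988, 4071 and 3074 in the KO libraries. The most abundant of them was *Cd79a*, at 498 to 1203. *Fcer2a*, which encodes CD23, had an FPKM of 37.0 to 88.0, highest in KO replicate 2, and *Cr2*, which encodes CD21, had 65.5 to 93.2, so both genes behind the sort were present in every library.

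Markers of other cells were unevenly spread. The 11 macrophage and monocyte markers summed to an FPKM of 73.4, 170 and 119 in the WT and of 73.8, 78.6 and 66.6 in the KO libraries. The most abundant was *Adgre1*, at 55.5 to 91.1, in the range of *Cr2* and *Fcer2a*, and it made up most of the sum in every library. *Csf1r*, *Itgam* and *Fcgr1* stayed below 1 in every library. *C1qb*, *C1qc* and *Cd14* were above 1 in WT replicate 2 alone, and *C1qa* was at 2.98 there, at 1.33 in WT replicate 3 and at or below 0.193 in the other libraries. *Lyz2*, a lysozyme gene of macrophages, had 6.18, 58.3 and 26.2 in the WT libraries and 0.5996, 2.23 and 3.70 in the KO libraries. The 6 erythroid markers, led by *Hbb-bs*, summed to 3.05, 16.2 and 13.5 in the WT and 2.91, 4.72 and 2.96 in the KO libraries. WT replicates 2 and 3 were thus the libraries with most macrophage and erythroid RNA. The 9 neutrophil markers summed to 38.9 in WT replicate 1, led by *S100a9* at 19.9, and to at most 0.528 in the other libraries.

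The 6 plasma cell markers, led by *Xbp1*, summed to 715, 429 and 399 in the WT and to 681, 505 and 906 in the KO libraries, so the lowest sums were those of WT replicates 2 and 3. The 10 proliferation genes summed to 1646, 2061 and 2044 in the WT and to 1843, 1712 and 1599 in the KO libraries. Their highest sums were in WT replicates 2 and 3. *Pcna* led them by mean, with *Top2a* above it in WT replicate 3 and KO replicate 1. The 6 dendritic cell markers, led by *Flt3*, summed to 16.8, 16.2 and 17.9 in the WT and to 12.95, 12.04 and 12.7 in the KO libraries. The 4 platelet markers, led by *Itga2b*, summed to 2.52, 2.21 and 2.13 in the WT and to 1.64, 1.42 and 1.06 in the KO libraries. In both of these lists every KO sum was below every WT sum. Sums for T cells (7 genes, led by *Cd5*) were 3.24 to 4.15 and for NK cells (5 genes, led by *Prf1*) 0.954 to 2.22. The 6 stromal and endothelial markers summed to 76.6 to 98.5, nearly all of it from *Pecam1*, which B cells also express, and the other 5 stayed below 1. Of all these lists only 1 gene, the NK marker *Gzma*, was at 0 in every library.

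Levels of the 10 genes spanned a wide range. By mean FPKM over the 6 libraries the order was *Pfkp* at 115 ± 34.1 (SD), *Pfkfb3* at 55.7 ± 4.49, *Pfkl* at 46.2 ± 4.02, *Hk1* at 44.3 ± 2.81 and *Hk2* at 27.8 ± 9.65. Then came *Slc2a1* at 15.5 ± 0.847, *Slc2a3* at 13.0 ± 1.15, *Pfkfb4* at 5.75 ± 0.464, *Pfkm* at 3.05 ± 0.298 and *Hk3* at 0.573 ± 0.400. The ranges over the libraries overlapped between the neighbours *Pfkfb3* and *Pfkl*, *Pfkl* and *Hk1*, and *Slc2a1* and *Slc2a3*. Within a library, *Pfkfb3* was above *Pfkl*, and *Slc2a1* above *Slc2a3*, in 6 of 6 libraries, whereas *Pfkl* was above *Hk1* in 3. The counted reads behind these values ran from 13 to 86 per library for *Hk3* and from 217 upwards for the other members, up to 8353 for *Pfkp*.

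**Figure D1:**
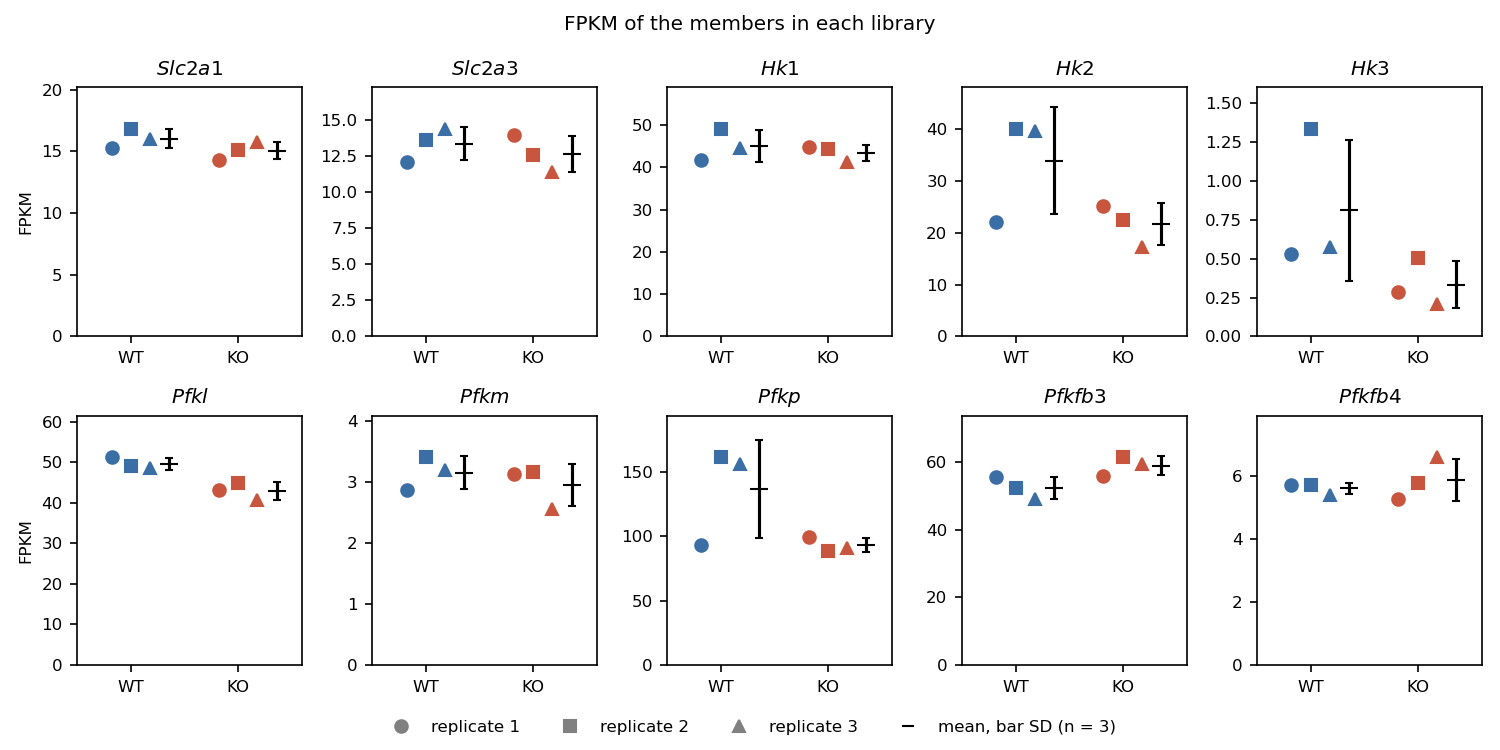
FPKM of each of the 10 genes (vertical axes, each from 0) in the 3 WT (blue) and 3 KO (red) libraries; the symbol gives the replicate number, and the black mark and bar give the mean and SD of a group. In *Hk2* and *Pfkp*, WT replicate 1 lies with the KO libraries and below WT replicates 2 and 3.

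The gene length behind the FPKM matters for this order, and 2 other lengths were tried after seeing the data. Read back from the values, the length was 1297 bases for *Hk1*, whose longest coding transcript has 4278 bases, because the length used was close to the mean over all 20 annotated transcripts, short fragments included. For *Hk2* the length was 2351 bases against a longest coding transcript of 5513. Per length of the longest coding transcript, *Hk1* had 13.4 ± 0.852 and *Hk2* 11.8 ± 4.12 (SD, 6 libraries). Per length of all exons merged, *Hk1* had 6.73 ± 0.427 and *Hk2* 10.9 ± 3.80, and *Hk2* was above *Hk1* in 6 of 6 libraries, where by deposited FPKM it was in 0 of 6. *Pfkp* and *Pfkfb3* also changed places with merged exons, at 14.4 ± 4.27 and 16.3 ± 1.31, with *Pfkp* above *Pfkfb3* in 2 of 6 libraries, and *Hk1* fell below *Slc2a1*, at 7.57 ± 0.413. *Pfkm* came above *Pfkfb4* with both other lengths, at 3.02 ± 0.295 and 2.85 ± 0.230 per longest coding transcript and at 2.60 ± 0.254 and 2.04 ± 0.165 per merged exon length. With merged exons *Hk2* also came above *Pfkl* by mean, at 10.9 ± 3.80 against 9.37 ± 0.815. *Hk3* had the lowest level with each length. Which hexokinase is the more abundant therefore depends on the length chosen, while comparisons of 1 gene between libraries do not.

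**Figure D2:**
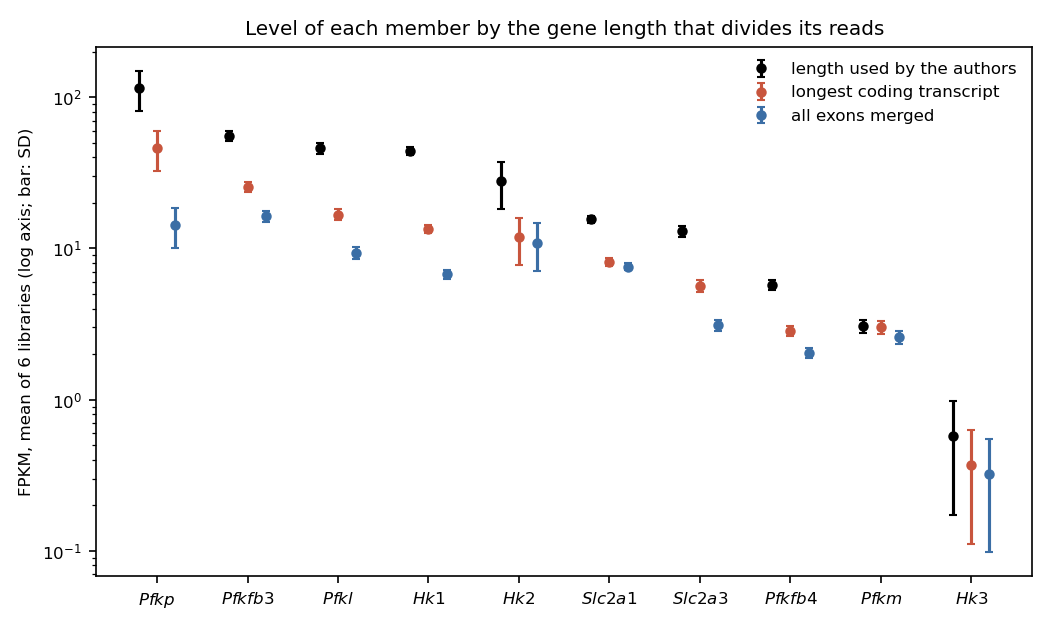
Mean FPKM of each gene over the 6 libraries (vertical log axis; bars, SD) when its reads are divided by the length the authors used (black), by the longest coding transcript (red) or by all exons merged (blue). *Hk1* lies above *Hk2* with the first length and below it with the last.

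KO and WT libraries were compared by limma on log2(FPKM + 1), with Benjamini-Hochberg adjustment over the 13312 genes whose mean FPKM was 0.5 or more. All 10 genes passed this minimum, *Hk3* only through the WT libraries, since its KO mean was 0.333. None of the 10 was differentially expressed at an adjusted p under 0.05, beside 0% of all genes tested. The smallest adjusted p over all genes was 0.321, and 929 genes, 4 of the 10 among them (*Hk2*, *Pfkl*, *Pfkp* and *Pfkfb3*), had an unadjusted p under 0.05. Voom on the recovered reads also called 0 genes. Among the 9 genes other than *Hk3*, 7 were lower and 2 higher in KO cells, and their median log2 fold change was −0.076, beside −0.028 over all genes tested. The counts were 7 and 2 and the median −0.13 without WT replicate 1, beside −0.050 over all genes. They were 4 and 5 with a median of 0.025 without WT replicates 2 and 3 together, beside 0.0062 over all genes. Groups did not overlap in 2 of the 9, *Pfkl* with KO lower (6.03% of all genes tested) and *Pfkfb3* with KO higher (4.06% of all genes tested). They did not overlap in *Hk3* either, which is left out of these counts because only its WT values brought it past the minimum.

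The call changed with 1 library. Without WT replicate 1, limma called 2 of the 10 genes, *Hk2* and *Pfkp*, both lower in KO cells, beside 9.40% of all genes tested called in either direction and 5.75% called lower. Library weights estimated by limma were lowest for WT replicate 1, at 0.239 against 0.664 to 2.42 for the others, and a fit with them called *Hk2* and *Pfkp* as well, beside 10.9% of all genes tested. Without WT replicates 2 and 3 together, limma called 0 of the 10 beside 0.0225% of all genes tested. That fit has a single WT library, which is assumed to vary like the KO libraries.

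**Figure D3:**
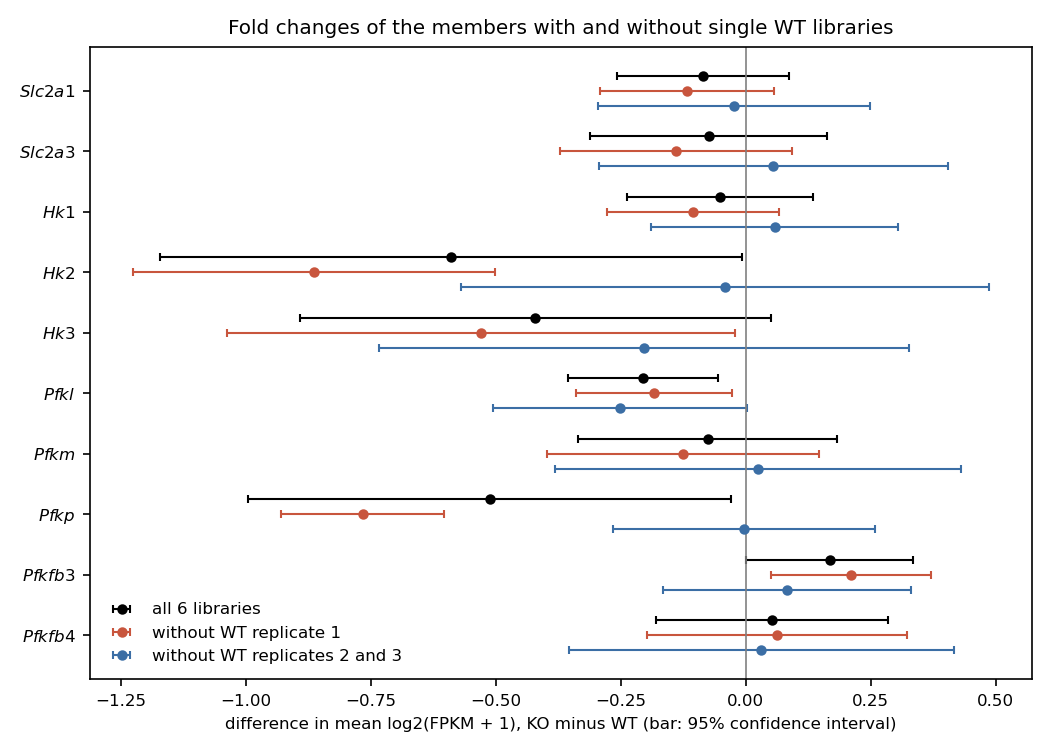
Difference in mean log2(FPKM + 1), KO minus WT, with 95% confidence intervals from limma (horizontal axis) for each gene with all 6 libraries (black), without WT replicate 1 (red) and without WT replicates 2 and 3 (blue, a single WT library). *Hk2* and *Pfkp* move from −0.86 and −0.77 in red to −0.042 and −0.0041 in blue, whereas *Pfkl* lies at −0.18 and −0.25.

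The transporters that bring glucose in varied little. *Slc2a1* (ENSMUSG00000028645, chromosome 4 of mm10, 119108711 to 119137983), which encodes GLUT1, had an FPKM of 15.3, 16.8 and 16.0 in the WT and of 14.3, 15.1 and 15.7 in the KO libraries. *Slc2a3* (ENSMUSG00000003153, chromosome 6, 122727809 to 122801640), which encodes the high-affinity transporter GLUT3, had 12.1, 13.6 and 14.4 in the WT and 13.9, 12.6 and 11.4 in the KO libraries. The groups overlapped in both, and no library stood out. Log2 fold changes were −0.086 for *Slc2a1* (95% confidence interval −0.26 to 0.086) and −0.074 for *Slc2a3* (−0.31 to 0.16), with adjusted p of 0.693 and 0.793 from limma. With 1 library left out, that of *Slc2a1* was nearest to 0 without KO replicate 1, at −0.052, and that of *Slc2a3* ran from −0.14 without KO replicate 1 to −0.0083 without KO replicate 3. Without WT replicates 2 and 3 they were −0.024 and 0.055. *Slc2a3* made up 44.2%, 44.8% and 47.4% of the summed FPKM of the pair in the WT and 49.3%, 45.5% and 42.1% in the KO libraries.

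Of 12 other transporters listed, 3 were tested, and 9 had a mean FPKM under 0.5. *Slc2a6*, chosen after its values were seen, encodes the lysosomal transporter GLUT6 and had an FPKM of 81.5, 132 and 137 in the WT and of 81.3, 104 and 84.9 in the KO libraries. It was above *Slc2a1* and *Slc2a3* in 6 of 6 libraries, also per merged exon length, and was again highest in WT replicates 2 and 3. Its log2 fold change was −0.34 with all libraries (adjusted p = 0.636 from limma), −0.58 without WT replicate 1 (adjusted p = 0.0331, a call beside 5.75% of all genes called lower), −0.55 with library weights (adjusted p = 0.0418), and 0.14 without WT replicates 2 and 3. Groups did not overlap for *Slc2a8*, which encodes an intracellular hexose transporter, at 7.76, 7.41 and 8.53 in the WT and 6.51, 7.29 and 7.08 in the KO libraries. They did not overlap either for *Slc2a9*, a gene for a transporter of urate and hexoses, at 3.16, 2.99 and 2.56 in the WT and 3.999, 3.38 and 3.35 in the KO libraries. All KO values were below all WT values in 6.03% of all genes tested, and above them in 4.06%. The log2 fold changes of *Slc2a8* and *Slc2a9* were −0.16 and 0.23, neither called by limma, and that of *Slc2a9* was 0.14 without WT replicates 2 and 3. The sodium-coupled transporter gene *Slc5a1* was near 0, with 0.0551 or less in the WT libraries, and was listed at 0 in the KO libraries.

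Among the hexokinases, *Hk1* was even and *Hk2* was not. *Hk1* (ENSMUSG00000037012, chromosome 10, 62268855 to 62379908), the widely expressed hexokinase, had an FPKM of 41.7, 49.1 and 44.6 in the WT and of 44.8, 44.3 and 41.3 in the KO libraries. The groups overlapped, and the log2 fold change was −0.051 (−0.24 to 0.13), which turned to 0.011 without WT replicate 2 and to 0.058 without WT replicates 2 and 3. *Hk2* (ENSMUSG00000000628, chromosome 6, 82725025 to 82774454), the inducible isoform that binds mitochondria, had 22.1, 39.99 and 39.6 in the WT and 25.2, 22.5 and 17.3 in the KO libraries. WT replicates 2 and 3 were above every KO library, while WT replicate 1 lay within the KO range. With all libraries the log2 fold change of *Hk2* was −0.59 (−1.17 to −0.0073, adjusted p = 0.626 from limma). Without WT replicate 1 it was −0.86 (−1.23 to −0.50, adjusted p = 0.0244), lower in 3 of 3 KO libraries than in both WT libraries left. Without WT replicates 2 and 3 it was −0.042. Over the 15 alternatives its adjusted p ran from 0.0244 to 1.

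*Hk3* was the weakest of the members. *Hk3* (ENSMUSG00000025877, chromosome 13, 55005985 to 55021385), an isoform known mainly from myeloid cells, had an FPKM of 0.529, 1.33 and 0.573 in the WT and of 0.288, 0.503 and 0.209 in the KO libraries. Each KO value was lower than each WT value, the nearest pair being 0.503 and 0.529, and WT replicate 2 was the highest. Its log2 fold change was −0.42 and is given as a description, since the gene passed the minimum through its WT values. It was −0.22 without WT replicate 2 and −0.20 without WT replicates 2 and 3 together. A pseudocount of 1 understates changes of genes near 0, and the value was −1.02 with a pseudocount of 0.1 and −1.19 with voom. WT replicate 2 was also the library with the largest macrophage sum and the highest *Lyz2*, at 58.3. What part of the *Hk3* values came from such cells was not tested, and fewer cells of a type and less RNA per cell cannot be told apart in bulk RNA.

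Shares within the hexokinases moved with *Hk2*. *Hk2* made up 34.3%, 44.2% and 46.8% of the summed hexokinase FPKM in the WT and 35.8%, 33.4% and 29.5% in the KO libraries. *Hk1* made up 64.8%, 54.3% and 52.6% in the WT and 63.8%, 65.8% and 70.2% in the KO libraries. *Hk3* stayed at or below 1.48% in every library. The means differed, KO minus WT, by −8.86 percentage points for *Hk2* (exact permutation test over libraries, two-sided, p = 0.2) and by 9.35 for *Hk1* (exact p = 0.2). These were −12.6 and 13.1 without WT replicate 1, and −1.43 and 1.75 without WT replicates 2 and 3 together, where a single WT library allows no test. With 3 against 3 libraries such a test cannot go below 0.1. By recovered reads not divided by length, *Hk2* held 48.5%, 58.6% and 61.2% in the WT and 50.2%, 47.5% and 43.0% in the KO libraries, and *Hk1* held 50.5%, 39.7% and 37.98% in the WT and 49.3%, 51.6% and 56.5% in the KO libraries. *Hk2* was then the larger part in WT replicates 2 and 3 and, by a narrow margin, in KO replicate 1.

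**Figure D4:**
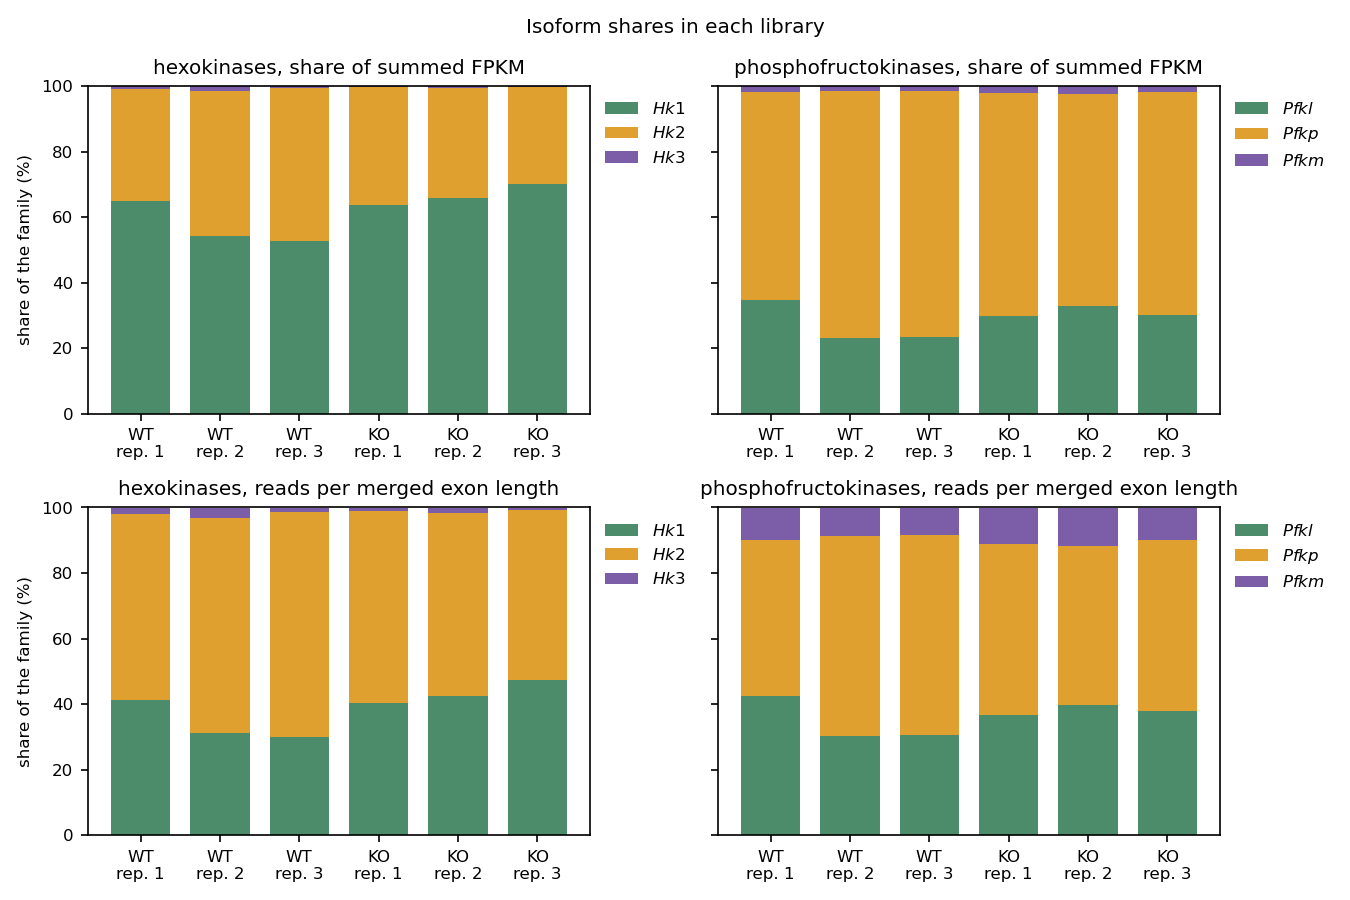
Share of each isoform in the summed level of the hexokinases (left) and the phosphofructokinases (right) in each library (vertical axes, percent), by deposited FPKM (top) and by reads per merged exon length (bottom). *Hk2* and *Pfkp* hold their largest shares in WT replicates 2 and 3 in all panels.

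Other genes around glucose phosphorylation were mostly tested without a call. Of 15 listed, 8 were tested, 5 lower and 3 higher in KO cells (median log2 fold change −0.084, beside −0.028 over all genes tested), 0 called and 0 with groups apart. The median was −0.14 without WT replicate 1 and −0.017 without WT replicates 2 and 3. Without WT replicate 1 limma called 1 of them, beside 9.40% of all genes tested. It was *Adpgk*, whose product phosphorylates glucose with ADP. With library weights limma called *Adpgk* and *Tigar*, whose product is known to break down the activator of phosphofructokinase (log2 fold change −0.28, adjusted p = 0.0486, and −0.21 with equal weights), beside 10.9% of all genes tested. Both were named after their values were seen. The log2 fold change of *Tigar* was −0.30 without WT replicate 1, with no call (adjusted p = 0.0567 from limma), and −0.028 without WT replicates 2 and 3. The FPKM of *Adpgk* was 15.3, 20.8 and 21.9 in the WT and 15.8, 15.2 and 14.6 in the KO libraries, again highest in WT replicates 2 and 3. Its log2 fold change was −0.31 with all libraries (adjusted p = 0.626 from limma), −0.46 without WT replicate 1 (adjusted p = 0.0167), and −0.0076 without WT replicates 2 and 3. The fructose bisphosphatase genes of gluconeogenesis, *Fbp1* and *Fbp2*, and *G6pc* were listed at 0 in every library.

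Of the phosphofructokinase subunits, *Pfkl* separated the groups and *Pfkp* separated WT replicates 2 and 3 from the rest. *Pfkl* (ENSMUSG00000020277, chromosome 10, 77986947 to 78010083), the liver-type subunit, had an FPKM of 51.1, 49.1 and 48.4 in the WT and of 43.1, 44.8 and 40.6 in the KO libraries. Every KO value was below every WT value, as in 6.03% of all genes tested, and WT replicate 1 was the highest. The dendritic cell and platelet marker sums were also lower in every KO library. Of the genes tested in these lists, only *Siglech* and *Itga2b* had groups that did not overlap. The part of such cells in the values of *Pfkl* was not tested. The KO mean of 42.8 ± 2.14 (SD, n = 3) was 86.5% of the WT mean of 49.5 ± 1.42 (SD, n = 3). The log2 fold change was −0.21 (−0.36 to −0.056, SE 0.063, unadjusted p = 0.0143 and adjusted p = 0.626 from limma). It was −0.18 without WT replicate 1, −0.25 without WT replicates 2 and 3, and between −0.25 and −0.16 under all 15 alternatives, none of which called it (adjusted p from 0.0616 to 1).

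*Pfkp* (ENSMUSG00000021196, chromosome 13, 6579768 to 6648777), the platelet-type subunit and the most abundant of the 10 by FPKM, had 93.1, 161 and 156 in the WT and 99.2, 88.6 and 91.1 in the KO libraries. WT replicates 2 and 3 stood above all other libraries, and WT replicate 1 lay between the KO values. The log2 fold change was −0.51 (−0.996 to −0.028, adjusted p = 0.626 from limma) with all libraries and −0.77 (−0.93 to −0.60, adjusted p = 0.00445) without WT replicate 1, with 3 of 3 KO libraries below both WT libraries left. Without WT replicates 2 and 3 it was −0.0041 (−0.27 to 0.26), and over the 15 alternatives its adjusted p ran from 0.00445 to 1. *Pfkm* (ENSMUSG00000033065, chromosome 15, 98092589 to 98132451), the muscle-type subunit, had 2.87, 3.40 and 3.19 in the WT and 3.13, 3.16 and 2.55 in the KO libraries. The groups of *Pfkm* overlapped, with a log2 fold change of −0.076 (−0.33 to 0.18) that was −0.0016 without KO replicate 3 and turned to 0.025 without WT replicates 2 and 3.

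*Pfkp* held the larger part of the subunits by FPKM. Its share was 63.3%, 75.4% and 75.2% in the WT and 68.2%, 64.9% and 67.9% in the KO libraries. *Pfkl* held 34.8%, 22.97% and 23.3% in the WT and 29.7%, 32.8% and 30.2% in the KO libraries, and *Pfkm* at most 2.31%. WT replicate 1 thus had the lowest *Pfkp* share of all 6 libraries, and WT replicates 2 and 3 the highest. Means differed by −4.31 percentage points for *Pfkp* and 3.89 for *Pfkl* (exact permutation p = 0.4 for each). These were −8.32 and 7.76 without WT replicate 1, −2.25 and 1.87 without WT replicate 2, and −2.38 and 2.03 without WT replicate 3. They turned to 3.69 and −3.86 without WT replicates 2 and 3 together, with a single WT library and no test. Over the 8 shares compared in the 4 families the smallest exact p was 0.2, and the smallest Benjamini-Hochberg adjusted p 0.4.

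Of the PFKFB genes, *Pfkfb3* kept the groups apart and *Pfkfb4* did not. *Pfkfb3* (ENSMUSG00000026773, chromosome 2, 11471433 to 11554077), whose product mostly makes the activator of phosphofructokinase, had an FPKM of 55.6, 52.3 and 49.2 in the WT and of 55.9, 61.4 and 59.5 in the KO libraries. Every KO value was above every WT value, as in 4.06% of all genes tested. The nearest pair was WT replicate 1 and KO replicate 1, at 55.6 and 55.9. The log2 fold change was 0.17 (0.00098 to 0.34, adjusted p = 0.626 from limma) and stayed between 0.082 and 0.21 under the 15 alternatives, with no call. *Pfkfb4* (ENSMUSG00000025648, chromosome 9, 108991778 to 109032228) had 5.71, 5.73 and 5.41 in the WT and 5.27, 5.79 and 6.60 in the KO libraries. The groups overlapped, with a log2 fold change of 0.053 (−0.18 to 0.28) that turned to −0.021 without KO replicate 3. *Pfkfb4* made up 8.61% to 9.98% of the summed FPKM of the pair.

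The promoters of *Hk2* and *Pfkp* are shown because both genes followed the same libraries. RefSeq promoters (GRCm38.p6, 250 bases before to 50 after a start) matched 9 of the 10 genes, with 14 promoters, and none was found for *Slc2a3*. They were searched on both strands for ACGTG and GCGTG, core letters of the HIF binding motif, and for CACGTG, the E-box that Myc binds, which contains ACGTG. Of 32851 mouse promoters of the same length, 19.6% held ACGTG, 32.4% GCGTG, 43.8% either and 7.15% CACGTG. Below are the 250 bases before the start, 5′ to 3′ on the gene's strand, with matches of the first pair of motifs, on either strand, in capitals.
*Hk2* (minus strand, chr6:82774455-82774704): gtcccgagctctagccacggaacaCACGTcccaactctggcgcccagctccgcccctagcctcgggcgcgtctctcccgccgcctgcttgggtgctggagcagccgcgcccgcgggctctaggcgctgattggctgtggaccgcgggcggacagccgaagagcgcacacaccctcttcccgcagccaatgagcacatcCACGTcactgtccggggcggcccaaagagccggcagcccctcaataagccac
*Pfkp* (minus strand, chr13:6648772-6649021): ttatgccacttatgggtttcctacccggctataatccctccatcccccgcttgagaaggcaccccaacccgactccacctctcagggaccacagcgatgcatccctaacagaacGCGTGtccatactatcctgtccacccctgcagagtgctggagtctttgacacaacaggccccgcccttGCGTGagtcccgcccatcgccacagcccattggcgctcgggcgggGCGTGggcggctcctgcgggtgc
*Hk2* held ACGTG at 2 places, both on the opposite strand, 226 and 52 bases before the start, and no GCGTG. *Pfkp* held no ACGTG and held GCGTG at 3 places before the start, 136, 68 and 23 bases from it, and at 1 place after it. Neither held CACGTG. A match describes letters in the window and does not show binding.

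*Pfkl* and *Pfkfb3*, whose groups did not overlap, and *Slc2a1* also held such letters. They are shown for comparison, each with up to 12 bases on either side and the motif in capitals.
*Pfkl* (minus strand, chr10:78009890-78009918): atttgtagactgGCGTGcgctccgccttt
*Pfkfb3* (first promoter, minus strand, chr2:11553973-11554001): ctccgcgccgtgACGTGccaagctgtgac
*Slc2a1* (plus strand, chr4:119108697-119108725): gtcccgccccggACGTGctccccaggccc
*Pfkl* had GCGTG 99 bases before its start and no ACGTG. Of the 2 promoters of *Pfkfb3*, the first had ACGTG 60 bases before its start, and the second held CACGTG. *Slc2a1* had ACGTG 36 bases and GCGTG on the opposite strand 61 bases before its start, although its values moved little between libraries. *Hk3*, the third member whose groups did not overlap, held ACGTG at 1 place and no GCGTG. Of the 14 promoters, 12 held ACGTG or GCGTG. The first promoter of *Hk1* and the fourth of *Pfkm* held neither, while the second of *Hk1* held ACGTG at 2 places and GCGTG at 3, and the first 3 of *Pfkm* and that of *Pfkfb4* held at least 1 of them.

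Genes outside glycolysis had profiles close to those of *Hk2* and *Pfkp* over the 6 libraries. Profiles were compared by the root mean square difference of log2(FPKM + 1) after centring each gene, over 9275 genes whose mean FPKM was 5 or more. Closest to *Hk2* were *Iars* and *Lars*, which encode isoleucyl- and leucyl-tRNA synthetases, *Gtse1*, a gene of the cell cycle, the cationic amino acid transporter gene *Slc7a1*, and *Dglucy*, with differences of 0.0840 to 0.0971. *Iars*, the first of them, had an FPKM of 75.9, 139 and 143 in the WT and of 89.4, 79.2 and 71.9 in the KO libraries.

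Closest to *Pfkp* were *Uhrf1bp1*, *Aars*, which encodes alanyl-tRNA synthetase, *Abr*, the stress-response transcription factor gene *Atf4*, and *Phgdh*, the first enzyme of serine synthesis, with differences of 0.0331 to 0.0503. *Atf4* had an FPKM of 149, 229 and 233 in the WT and of 144, 133 and 136 in the KO libraries. *Phgdh* had 323, 555 and 545 in the WT and 333, 280 and 316 in the KO libraries. In all these genes WT replicates 2 and 3 were high and WT replicate 1 lay near the KO libraries. *Pfkp* ranked 38 among the genes nearest to *Hk2*, and *Hk2* ranked 132 among those nearest to *Pfkp*, at a difference of 0.139. *Myc* ranked 85 among those nearest to *Pfkp* and 422 among those nearest to *Hk2*. *Pfkl* ranked 2909 for *Hk2* and 3369 for *Pfkp*. Across the 6 libraries the SD of log2(FPKM + 1) was 0.47 for *Hk2* and 0.40 for *Pfkp*, above 95.1% and 92.9% of the genes tested, while that of *Slc2a1* was above 16.3%.

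**Figure D5:**
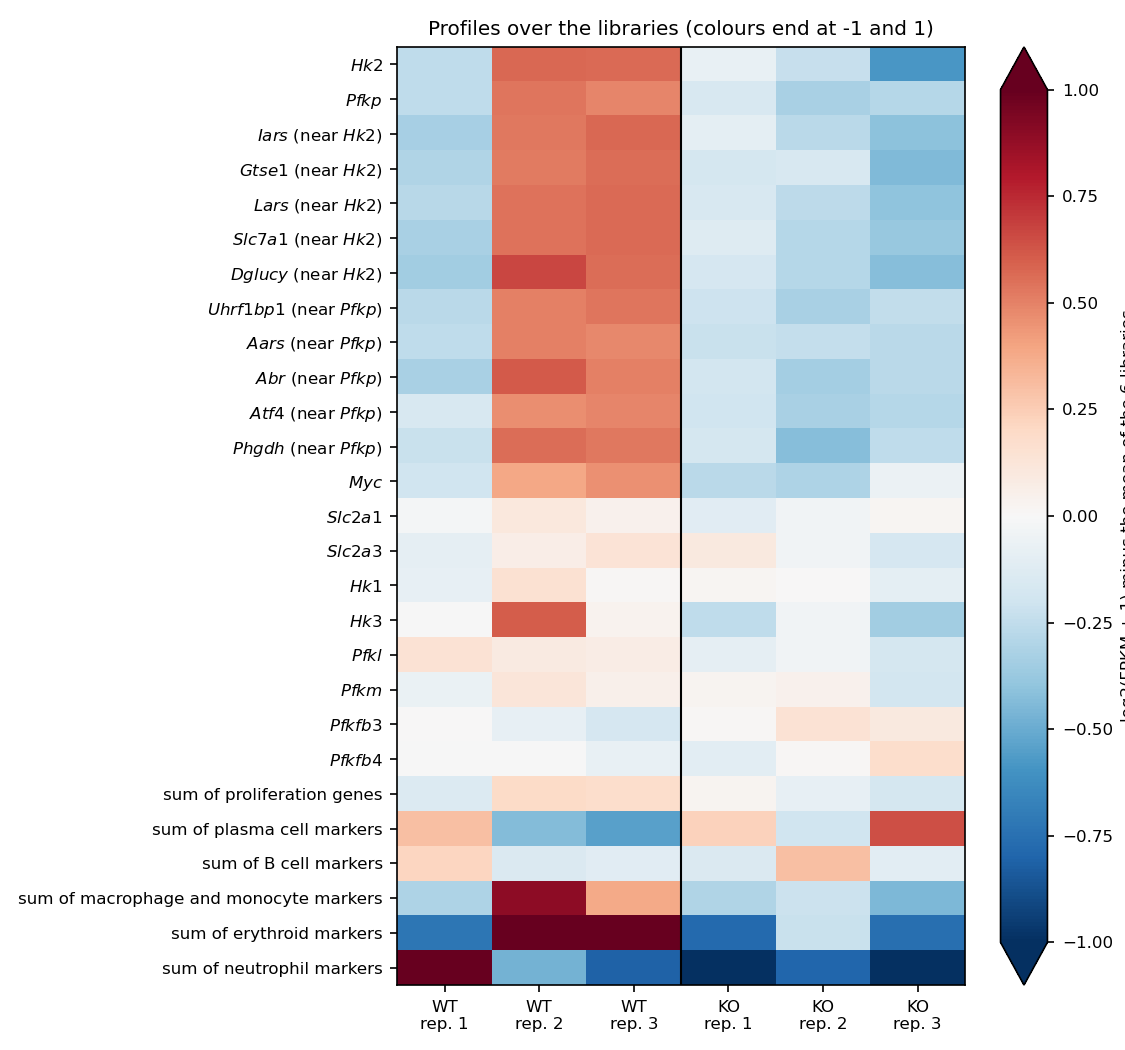
Log2(FPKM + 1) minus its mean over the 6 libraries (colour, ending at −1 and 1) for *Hk2*, *Pfkp*, the 5 genes nearest to each, *Myc*, the other 8 genes and summed marker lists (rows) in each library (columns; WT left and KO right of the line). The first 13 rows are high in WT replicates 2 and 3, as are the macrophage and erythroid sums, and the plasma cell sum is low there.

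WT replicates 2 and 3, in which *Hk2*, *Pfkp* and their nearest genes were high, also had the highest sums of macrophage, erythroid and proliferation genes and the lowest sum of plasma cell markers, and WT replicate 1 held nearly all of the neutrophil RNA. The part of these cells or states in the values of *Hk2* and *Pfkp* was not tested.

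Among regulators of the entry steps, *Myc* showed the same split of the WT libraries. *Myc* had an FPKM of 32.4, 49.2 and 51.7 in the WT and of 30.8, 29.95 and 35.8 in the KO libraries, with WT replicate 1 again within the KO range. Its log2 fold change was −0.43 with all libraries (adjusted p = 0.626 from limma), −0.64 without WT replicate 1 (adjusted p = 0.0150) and −0.013 without WT replicates 2 and 3. Of 14 regulators listed, 9 were tested, 2 lower and 7 higher in KO cells (1 lower and 8 higher with median-ratio scaling or quantile normalization), with a median of 0.080 and 0 called. Without WT replicate 1 limma called 1 lower, *Myc*, and 1 higher, *Mlxip*, beside 5.75% and 3.64% of all genes, as did the fit with library weights (6.82% and 4.06%), and without WT replicates 2 and 3 the counts were 4 lower and 5 higher with a median of 0.0056. KO values were all above WT values in 2 of the 9 (4.06% of all genes tested) and all below in 0. Groups did not overlap for *Arnt*, the partner of HIF-1α, at 35.6, 35.6 and 34.4 in the WT and 37.8, 37.6 and 36.4 in the KO libraries. They did not overlap for *Mlxip*, a glucose-responsive factor, at 22.77, 17.4 and 17.7 in the WT and 23.4, 22.798 and 23.4 in the KO libraries, with WT replicate 1 just below the lowest KO value. The log2 fold change of *Mlxip* was 0.26 with all libraries, 0.38 without WT replicate 1 (adjusted p = 0.0181 from limma) and 0.025 without WT replicates 2 and 3. Among genes too low to be tested, *Epas1*, which encodes HIF-2α, was higher in KO libraries (0.978, 0.285 and 0.977) than in WT libraries (0.258, 0.170 and 0.0870), and *Mycn* and *Arrdc4* stayed at or below 0.211.

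Glucose phosphate isomerase, which acts between hexokinase and phosphofructokinase, was listed together with the later steps of glycolysis, and most of these genes were lower in KO cells, with 0 called when all libraries weighed alike. Of 21 genes listed, 17 were tested, 12 lower and 5 higher in KO cells (median log2 fold change −0.21, beside −0.028 over all genes tested). Without *Gpi1*, the isomerase gene, 11 of 16 were lower and the median was −0.22. *Gapdh*, counted as higher and named after its values were seen, had an FPKM of 11.8, 16.9 and 16.8 in the WT and of 10.98, 101 and 6.33 in the KO libraries. Its direction rested on KO replicate 2, since the log2 fold change was 0.38 with all libraries and −0.77 without that library, and its reads are uncertain because it has many pseudogenes. KO values were all below WT values in 9 of the 17 (6.03% of all genes tested) and all above in 0. The 8 of these with the largest change were *Eno1* (−0.42), *Aldoa* (−0.40), *Ldhb* (−0.39), *Pkm* (−0.29), *Pgk1* (−0.25), *Pgam1* (−0.23), *Tpi1* (−0.21) and *Gpi1* (−0.10), where *Eno1* shares sequence with *Eno1b* and its reads are uncertain. *Ldhb* rested on 14 to 35 reads per library, and its value was −0.76 with a pseudocount of 0.1, −0.80 with voom, −0.24 without WT replicate 3 and −0.14 without WT replicates 2 and 3. *Aldoa*, the aldolase that follows phosphofructokinase, had an FPKM of 289, 375 and 349 in the WT and of 261, 262 and 240 in the KO libraries, so WT replicate 1 lay between the other WT libraries and the KO libraries. Its log2 fold change was −0.51 without WT replicate 1 (adjusted p = 0.0132 from limma) and −0.18 without WT replicates 2 and 3. *Tpi1*, triose phosphate isomerase, had 316, 270 and 267 in the WT and 246, 246 and 242 in the KO libraries, and like *Pfkl* it was highest in WT replicate 1, with −0.14 without that library and −0.37 without WT replicates 2 and 3. Without WT replicate 1 limma called 5 of the 17 lower, beside 5.75% of all genes tested (*Aldoa*, *Pgk1*, *Pgam1*, *Eno2* and *Pkm*), and 2 higher, beside 3.64% (*Pgam2* and *Bpgm*), the genes outside the 8 above being named after their values were seen. The fit with library weights called the same 7 genes and *Eno1* (adjusted p from 0.0312 to 0.0429), 6 lower beside 6.82% of all genes tested and 2 higher beside 4.06%. Log2 fold changes of *Eno2* were −0.31 with all libraries, −0.45 without WT replicate 1 and −0.021 without WT replicates 2 and 3. In the same order they were 0.56, 0.84 and −0.010 for *Pgam2* and 0.31, 0.51 and −0.084 for *Bpgm*. Without WT replicates 2 and 3 limma called 0, and 16 of the 17 were lower, with a median of −0.17, the exception being *Gapdh*. The sums of dendritic cell and platelet markers were likewise lower in every KO library, and those of macrophage and erythroid markers were highest in WT replicates 2 and 3, and their part in these values was not tested. Whether the later steps differ from the entry steps was not tested.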

How the data were processed

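Reads were filtered, aligned to mm10 with TopHat and counted per gene with HTSeq by the authors, who deposited FPKM values, 1 column per library. The annotation release and the strand option are not given in the sources used here, so genes with overlapping or near-identical copies are uncertain. Groups and replicate numbers came from the sample labels. Genes were named with GENCODE vM21 (46488 of 46983 IDs matched). The worth of 1 read was recovered from the low values, which gave whole reads, the depth of each library and an estimate of the length used for each gene. For 65.5% of 9589 genes with several transcripts, it was within 0.5% of the mean transcript length. It equalled the transcript for 92.8% of 9775 genes with 1 annotated transcript. Lengths and reads of genes seen in few libraries are uncertain.

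FPKM values were tested in R 4.3.3 with limma 3.58.1 (trend, no covariates) on log2(FPKM + 1) for genes whose mean FPKM was 0.5 or more, and those whose p, after Benjamini-Hochberg adjustment, was under 0.05 were called. The study's count test was not run, since the deposited values are FPKM, and voom on the recovered reads was the alternative. The method was tested on simulated data, which held no split of libraries like that among the WT libraries here. Isoform shares were compared by exact permutation tests. Members and lists were chosen with earlier results of these data known. Named genes were the members, *Hif1a*, *Myc*, up to 8 genes per pathway list that were called or had groups apart, and the 5 nearest profiles. Others were named in addition, among them markers, genes listed at 0, *Slc2a6*, *Adpgk*, *Tigar*, *Gapdh*, *Eno2*, *Pgam2* and *Bpgm*. Python 3.11.15, pandas 2.3.3, numpy 2.4.6, scipy 1.17.1 and matplotlib 3.10.9 were used. Some single-gene values are left out of the text.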

Additional observations from a re-analysis of the deposited data

How the results depend on the processing

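The number of differentially expressed genes among 13312 tested was 0 with a pseudocount of 0.1, without a filter (25717 tested), at a mean FPKM of at least 5 (9275 tested), with median-ratio scaling, with quantile normalization and with voom, 1449 with library weights and 3 without WT replicates 2 and 3 together (added after seeing the data). With 1 library left out it ran from 0 to 1251, the highest without WT replicate 1 and 1 without KO replicate 1. Of the 10 members, 2 were called with library weights, and 0 to 2 with 1 library left out. The replicate block gave 0 called genes and 0 called members. The labels do not say whether same-numbered libraries were prepared together. Deviations of same-numbered libraries from their group means correlated at −0.099, 0.14 and −0.28, which cannot decide it with so few libraries.

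Of 611 fold changes of 41 genes under alternatives, 546 kept direction and call, 48 were called with library weights or without WT replicate 1, and 17 turned. With 1 library left out, *Hk1* ran from −0.11 to 0.011 and turned without WT replicate 2, and *Pfkfb4* ran from −0.021 to 0.12 and turned without KO replicate 3. *Gapdh* ran from −0.77 to 1.13 and turned without KO replicate 2. Without WT replicates 2 and 3 together, the values were 0.055 for *Slc2a3*, 0.058 for *Hk1*, 0.025 for *Pfkm*, 0.072 for *Iars*, 0.041 for *Gtse1*, 0.0037 for *Lars*, 0.064 for *Slc7a1*, 0.057 for *Dglucy*, 0.0077 for *Uhrf1bp1*, 0.0056 for *Aars*, 0.060 for *Abr*, 0.14 for *Slc2a6*, −0.010 for *Pgam2* and −0.084 for *Bpgm*. The causes were not tested. Genes with a mean FPKM under 5 gave no value at that minimum.

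Of 80 differences in isoform shares under alternatives, 75 kept direction. That of *Slc2a3* ran from −1.65 to 1.97 percentage points with 1 library left out and turned without WT replicate 1 (−0.43), WT replicate 2 (−0.14) or KO replicate 1 (−1.65). Those of *Pfkp* and *Pfkl* ran from −8.32 to −2.25 and from 1.87 to 7.76 with 1 library left out, and turned without WT replicates 2 and 3 together (3.69 and −3.86, chosen after seeing the data). *Hk3*, with 13 to 86 reads per library, is the member that depth limits most.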
